A study of Mus musculus with 10 samples.

Results

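A set of 10 genes of megakaryocytes and platelets was followed in CD34- hematopoietic stem cells (HSCs) from mice labelled as deleted for Regnase-1 and from their controls. They were Pf4, Ppbp, Vwf, Mmrn1, Selp, Itga2b, Itgb3, Gp1bb, Gp9 and Gp5, and were chosen by their symbols, 10 of the 33393 genes in the files. These genes had 39 of the 95912 transcripts measured. The libraries were made from Lin- Sca-1+ c-Kit+ CD34- Flt3- bone marrow cells of C57BL/6 mice at 8 weeks of age. Controls were Reg1flox/flox mice, which carried the floxed alleles and no Cre. Reg1Δ/Δ mice carried the same floxed alleles and Vav1-iCre, a Cre recombinase that is active throughout the blood lineages, so that it does not act in HSCs alone. Experiment 1 had 3 libraries per genotype and experiment 2 had 2 per genotype. The values are TPM, a relative abundance per transcript length in which each library sums to 1000000.

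Megakaryocytes are the large bone marrow cells that shed platelets. They load granules with chemokines and adhesion proteins that platelets release at a wound, and cover the surface with receptors that let platelets stick to the vessel wall and to each other. Several of these genes are already transcribed in HSCs, and stem cells with high Vwf or CD41 (the product of Itga2b) are known as platelet-biased HSCs. Thrombopoietin is the cytokine that drives platelet production, and it also maintains HSCs.

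Zc3h12a, the gene of Regnase-1, lay between 1.28 and 6.07 TPM in the controls and between 2.08 and 10.3 TPM in the libraries labelled Reg1Δ/Δ. It was higher, not lower, in the libraries labelled Reg1Δ/Δ, which goes against the label (difference of 0.83 ± 0.28 SE on the log2(TPM + 1) scale, limma FDR = 0.0314, and 1.74e-04 to 0.214 over the settings tried, higher in each). The call was lost in 7 settings, which were no experiment covariate, no minimum on TPM (FDR = 0.0897), leaving out control 2 or library 1 labelled Reg1Δ/Δ of experiment 1, leaving out either library labelled Reg1Δ/Δ of experiment 2, and the replicate block (FDR = 0.0505). By quantitative RT-PCR, the paper reports next to no Regnase-1 mRNA in sorted CD34- HSCs of Reg1Δ/Δ mice. Which exons gave the signal in these libraries is not known from these values, and directions are given below by label. The experiments also differed in kind. Transcripts under 500 bases held 52.3 to 54.5% of TPM in experiment 1 and 20.0 to 27.3% in experiment 2, so each comparison was made within experiments. The sorted cells carried Kit RNA in every library (56.1 to 367 TPM). RNA of Cd34, whose protein the sort selected against, was present at 51.9 to 236 TPM in the controls and at 9.54 to 19.8 TPM in the libraries labelled Reg1Δ/Δ.

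In the libraries labelled Reg1Δ/Δ, 8 of the 10 genes were lower, of 9 that could be tested together. The multimerin gene Mmrn1 had the largest difference, about 105-fold in experiment 1 and 134-fold in experiment 2, the latter 282-fold without library 1 labelled Reg1Δ/Δ and 87.9-fold without library 2. Pf4, Vwf, Selp, Gp9, Itgb3, Gp1bb and Itga2b also fell. Gp5 did not fall and Ppbp was too low to be tested in the same way. In these 8 genes every library labelled Reg1Δ/Δ lay below every control of its own experiment, which held for 16.5% of all genes in the files. That share covers all 33393 genes, of which only 12874 met the minimum for the test, so it is not one of expressed genes alone.

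The background of this count was high. With limma on log2(TPM + 1), adjusted for experiment, 37.9% of the 12874 genes tested were lower and 15.0% were higher at an FDR under 0.05, and the median difference over all of them was -0.25. Over the 9 genes tested the median was -1.74. Itgb3 and Mmrn1 reached the minimum of 1 TPM in the 5 controls alone, so that they could enter the test only as genes that differ. Without any minimum, 8 of the 10 genes were lower, against 16.7% of 33393 genes. Other scalings moved the median of all genes to 0.14 (quantile normalization) and 0.05 (median-of-ratios), and the split of all calls from 1933 higher and 4880 lower to 3861 and 2636 or to 3973 and 3425. Under these scalings 7 and 8 of the genes were lower. A bulk value cannot tell fewer cells of a type from less RNA per cell.

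**Figure D1:**
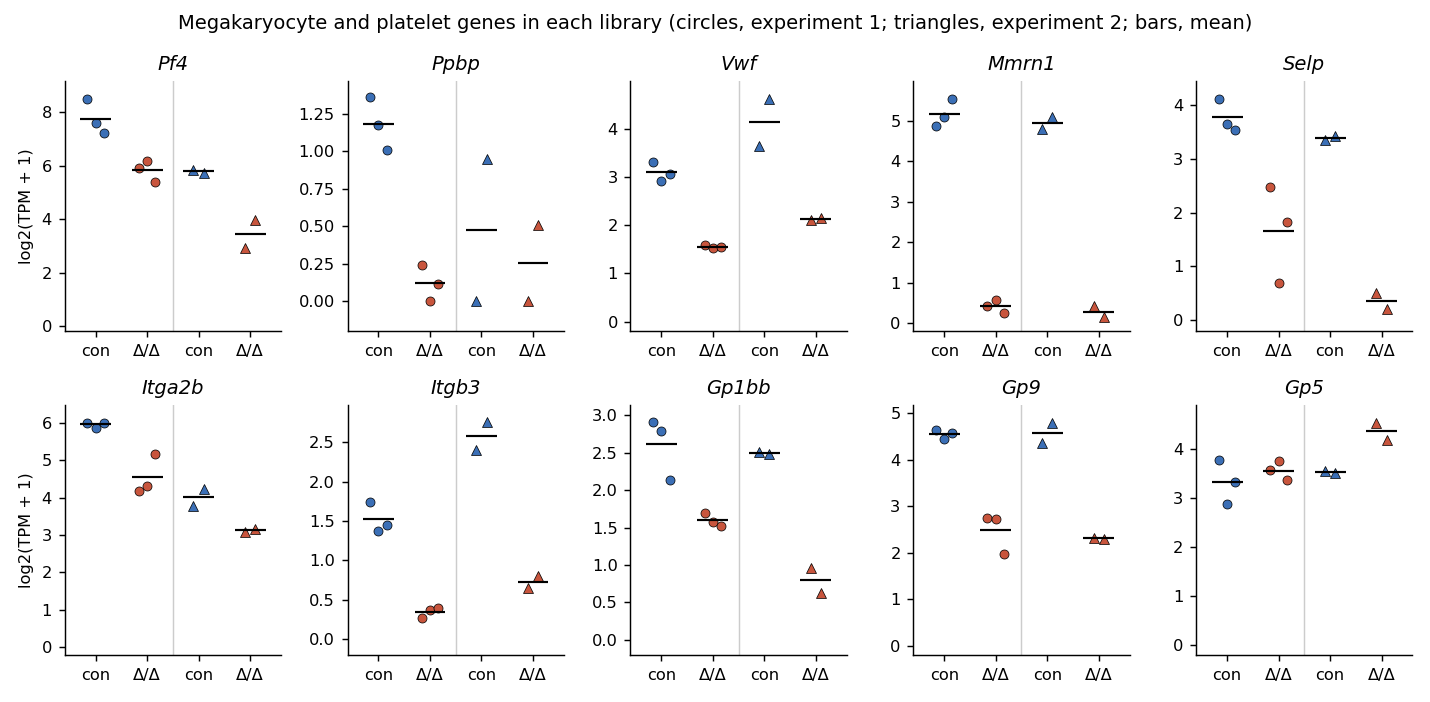
The 10 genes in each library, as log2(TPM + 1) on the vertical axis, with controls (con) in blue, libraries labelled Reg1Δ/Δ (Δ/Δ) in red and horizontal bars at the group means. Red points lie below the blue points of the same experiment in 8 panels, and overlap or lie above them for Ppbp in experiment 2 and for Gp5.

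In experiment 1 alone, 8 genes were lower (38.3% of all genes were) and in experiment 2 alone 5 were lower (12.3% of all genes), with none higher in either (limma, 0 genes in experiment 1 and 1, Gp5, in experiment 2 at an unadjusted p under 0.05). The 5 were Mmrn1, Selp, Gp9, Gp1bb and Itgb3. With any library of experiment 2 left out, 0 of these genes and 0 of all genes were called. The single library then left in a genotype was assumed to vary like the pair in the other. A test of the difference between the experiments (limma interaction) called 0 of the 9 genes, beside 0.443% of all genes, and 1 had an unadjusted p under 0.05. The FDRs of that test ran from 0.302 for Itgb3 to 0.937 for Mmrn1. A missed threshold does not show that the experiments gave the same difference.

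**Figure D2:**
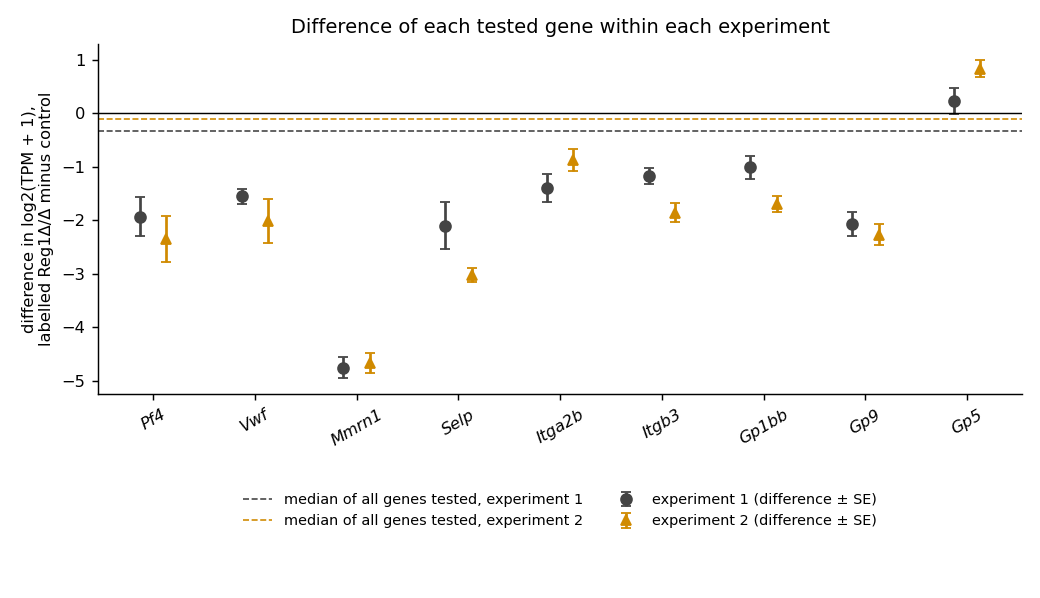
Difference of each of the 9 genes tested, in log2(TPM + 1), libraries labelled Reg1Δ/Δ minus control, with bars for the SE of the limma fit of each experiment and dashed lines at the median of all genes tested. All but Gp5 lie below the dashed lines in both experiments, Mmrn1 near -4.75 and -4.66, while Gp5 lies above 0.

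Granule contents came first. Pf4 encodes platelet factor 4, a chemokine of the alpha granules, at chr5:90772435-90773383 of GRCm38 on the plus strand. Its level was 360.4, 193 and 147 TPM in the controls of experiment 1 and 59.4, 72.4 and 40.9 TPM in the libraries labelled Reg1Δ/Δ. It was 56.9 and 52.4 TPM in the controls of experiment 2 against 6.65 and 14.6 TPM. The groups did not overlap within either experiment, but the controls of experiment 2 lay within the range of the libraries labelled Reg1Δ/Δ of experiment 1. The fold was 4.06 in experiment 1 and 5.14 in experiment 2, where it was 8.21 without library 2 labelled Reg1Δ/Δ (difference -2.10 ± 0.29 SE, FDR = 2.31e-04). Pf4 was the most abundant of the 10 genes in the controls, above 97.7% of the expressed genes in experiment 1 and above 88.0% in experiment 2.

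Ppbp, the gene of another granule chemokine, lies 2371 bases upstream of Pf4 in the same orientation. It was 1.57, 1.25 and 1.01 TPM in the controls of experiment 1 and 0.183, 0 and 0.0825 TPM in the libraries labelled Reg1Δ/Δ. Experiment 2 gave 0 and 0.930 TPM against 0 and 0.423 TPM. The groups were apart in experiment 1 and overlapped in experiment 2. Without a minimum on TPM the difference was -0.72 with an FDR of 0.0655, and an exact permutation test (two-sided, labels exchanged inside experiments) gave p = 0.05. In the controls of experiment 1, 52.9% of the expressed genes were lower than Ppbp, while 97.7% were lower than Pf4.

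Vwf encodes von Willebrand factor, the large adhesion protein that megakaryocytes and endothelial cells store (chr6:125546774-125686679, plus strand). Control levels were 8.91, 6.62 and 7.42 TPM in experiment 1 and 11.6 and 23.7 TPM in experiment 2. Libraries labelled Reg1Δ/Δ had 1.99, 1.89 and 1.91 TPM, and 3.30 and 3.45 TPM. The latter were close to each other within each experiment, and the spread lay among the controls. The fold was 3.96 and 5.22, the latter 3.43 without control 2 of experiment 2 (difference -1.74 ± 0.19 SE, FDR = 4.61e-05, and -1.02 with an FDR of 0.00266 under quantile normalization).

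Mmrn1 encodes multimerin 1, which binds factor V in the alpha granule (chr6:60924976-60989378, plus strand). It was 28.2, 33.1 and 45.5 TPM in the controls of experiment 1 and 26.7 and 33.2 TPM in those of experiment 2. In the libraries labelled Reg1Δ/Δ it was 0.345, 0.480 and 0.194 TPM, and 0.341 and 0.106 TPM. None of these 5 reached 1 TPM. The difference was -4.71 ± 0.15 SE with an FDR of 2.10e-07, at similar levels in both experiments.

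Selp encodes P-selectin, which sits in the granule membrane and comes to the surface on activation (chr1:164115264-164150026, plus strand). Controls had 16.3, 11.5 and 10.6 TPM in experiment 1 and 9.19 and 9.68 TPM in experiment 2. Libraries labelled Reg1Δ/Δ had 4.55, 0.620 and 2.56 TPM, and 0.423 and 0.164 TPM. The values varied widely among the 3 libraries of experiment 1, all below the controls. The fold was 4.97 in experiment 1 (8.05 without library 1 labelled Reg1Δ/Δ) and 32.2 in experiment 2 (57.7 without its library 1 labelled Reg1Δ/Δ). Over both experiments Selp was lower (difference -2.47 ± 0.32 SE, FDR = 1.72e-04), and the difference between experiments was not past the threshold (FDR = 0.601).

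The fibrinogen receptor is a pair of integrin chains. Its alpha chain, Itga2b (CD41, chr11:102453297-102470122, minus strand), was at 62.9, 57.0 and 62.9 TPM in the controls of experiment 1. The libraries labelled Reg1Δ/Δ had 17.2, 18.9 and 34.5 TPM there. Experiment 2 gave 12.6 and 17.9 TPM against 7.49 and 7.98 TPM. The groups were apart, although the fold, 2.59 and 1.97, was the smallest among the 8 genes (difference -1.19 ± 0.20 SE, FDR = 8.76e-04). Without the experiment covariate the FDR of Itga2b rose to 0.158 and that of Pf4 to 0.0603, since the levels of both differed widely between the experiments.

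The beta chain, Itgb3 (CD61, chr11:104608000-104670476, plus strand), was lower throughout. Its controls had 2.36, 1.58 and 1.74 TPM, and 4.30 and 5.75 TPM in experiment 2. The libraries labelled Reg1Δ/Δ had 0.206, 0.298 and 0.310 TPM, and 0.561 and 0.747 TPM. The fold was 6.97 and 7.68 (difference -1.45 ± 0.16 SE, FDR = 4.97e-05). The difference was -0.47 under quantile normalization (FDR = 0.0160) and -2.55 with a pseudocount of 0.1 (FDR = 5.24e-06). Within a library, log2(TPM + 1) of Itga2b exceeded that of Itgb3 by 4.25, 4.49 and 4.54 in the controls of experiment 1 and by 3.91, 3.94 and 4.76 in the libraries labelled Reg1Δ/Δ, which overlapped. In experiment 2 the excess was 1.36 and 1.48 in the controls and 2.44 and 2.36 in the libraries labelled Reg1Δ/Δ, which lay above both controls.

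The receptor for von Willebrand factor is a complex of the products of Gp1ba, Gp1bb, Gp9 and Gp5. Gp9 (chr6:87778072-87779768, plus strand), a chain needed to bring the complex to the surface, was at 23.8, 20.8 and 22.8 TPM in the controls of experiment 1 and at 19.5 and 26.8 TPM in those of experiment 2. In the libraries labelled Reg1Δ/Δ it was at 5.73, 5.56 and 2.91 TPM, and at 3.97 and 3.92 TPM. It was 4.74- and 5.86-fold lower with no overlap (difference -2.15 ± 0.17 SE, FDR = 6.38e-06).

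Gp1bb (chr16:18620317-18622403, minus strand), the beta chain that links the complex together, fell as well. It was 6.50, 5.91 and 3.38 TPM in the controls of experiment 1, and 2.24, 1.97 and 1.87 TPM in the libraries labelled Reg1Δ/Δ. Experiment 2 gave 4.71 and 4.59 TPM against 0.947 and 0.549 TPM. The difference was -1.29 ± 0.19 SE (FDR = 3.41e-04), and it was -0.33 and not past the threshold under quantile normalization (FDR = 0.153, against 4.84e-05 to 0.00282 in its other settings over both experiments). Gp1bb overlaps Sept5 on the same strand, so the reads of the shared part cannot be told apart. Sept5 itself was at 0.113 to 0.432 TPM in the controls of experiment 1, at 5.36 and 9.36 TPM in those of experiment 2 and at no more than 0.0752 TPM in the libraries labelled Reg1Δ/Δ.

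Gp5 (chr16:30307685-30310779, minus strand), the subunit that thrombin cleaves, was not lower. Its controls had 12.6, 6.37 and 8.98 TPM in experiment 1 and 10.7 and 10.4 TPM in experiment 2. The libraries labelled Reg1Δ/Δ had 10.8, 12.4 and 9.25 TPM, and 22.3 and 17.2 TPM. The groups overlapped in experiment 1, and in experiment 2 both libraries labelled Reg1Δ/Δ were above the controls. The difference was 0.47 ± 0.19 SE with an FDR of 0.0646, and it was past the threshold under quantile normalization (1.05), under median-of-ratios scaling (0.80), without control 1 of experiment 1 (0.63, FDR = 0.00998) and without library 3 labelled Reg1Δ/Δ of experiment 1 (0.56, FDR = 0.0484). Over its 20 alternatives the FDR ran from 0.00112 to 0.218.

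Gp1ba, the chain that binds von Willebrand factor, is no member of the 10 and was low. It was 3.16, 1.36 and 2.70 TPM in the controls of experiment 1 and 3.91, 3.98 and 4.54 TPM in the libraries labelled Reg1Δ/Δ, and 3.11 and 2.77 TPM against 4.17 and 3.30 TPM in experiment 2. It was higher by 0.48 ± 0.17 SE (FDR = 0.0339), with no overlap. This call was not firm, with FDRs from 3.27e-04 to 0.782 over the settings tried, although the sign was the same in each. It was lost in 9 of these settings, with the largest FDR where only the longest coding transcript was used. They included leaving out control 3 or any library labelled Reg1Δ/Δ of experiment 1, and control 2 or library 1 labelled Reg1Δ/Δ of experiment 2.

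Ratios between partners within a library do not change when a library is multiplied by a constant, apart from the effect of the pseudocount. The pairs were chosen after their values were seen, so these differences are a description with no test. Gp5 minus Gp9 was between -1.57 and -0.80 in the controls and between 0.81 and 2.23 in the libraries labelled Reg1Δ/Δ, in log2(TPM + 1). Gp5 minus Gp1bb was higher by 1.76 and Gp1ba minus Gp1bb by 1.77 in the libraries labelled Reg1Δ/Δ, each without overlap inside the experiments.

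**Figure D3:**
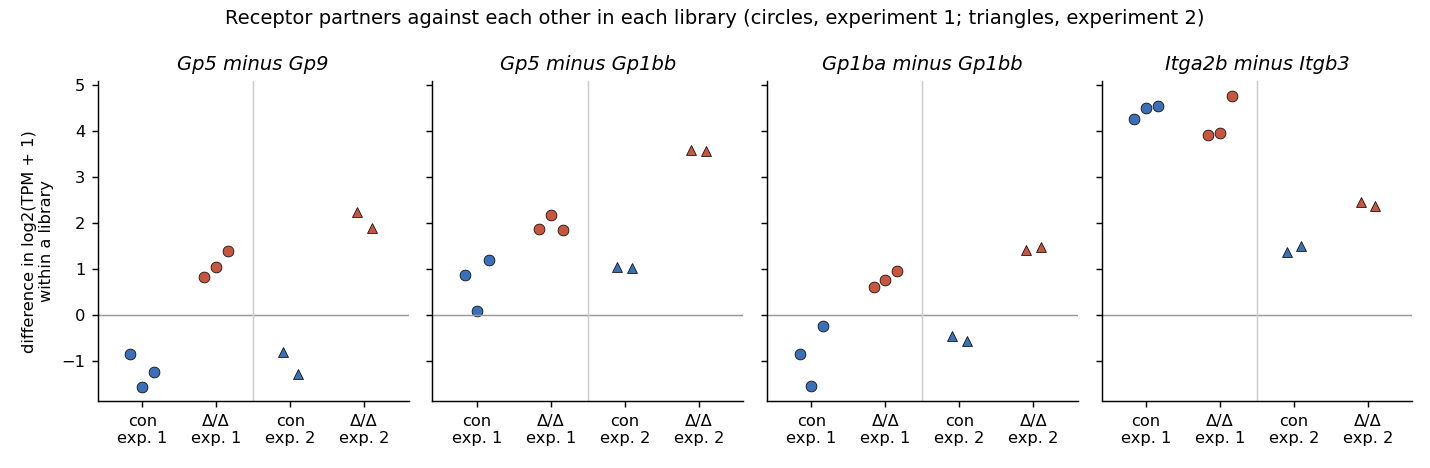
Difference in log2(TPM + 1) between partners of a receptor within each library, for 4 pairs, with controls (con) in blue and libraries labelled Reg1Δ/Δ (Δ/Δ) in red. In the 3 pairs of the von Willebrand factor receptor all red points lie above the blue points of their experiment, and for Itga2b minus Itgb3 they overlap in experiment 1.

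The stretches upstream of the start are shown for the 3 genes of this receptor that belong to the 10, since Gp9 and Gp1bb were lower and Gp5 was not. They are the 120 bases before the RefSeq start on GRCm38.p6, 5′ to 3′ along the gene. Capitals mark words known from GATA factors, which are AGATAA or else TGATAA, and then AGATAG or else TGATAG, and words known from ETS factors such as Fli1, which are AGGAAG or else CGGAAG, on either strand.
Gp5, chr16:30310782-30310901, minus strand: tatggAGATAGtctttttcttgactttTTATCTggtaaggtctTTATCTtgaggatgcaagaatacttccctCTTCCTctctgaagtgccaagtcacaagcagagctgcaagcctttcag
Gp9, chr6:87777950-87778069, plus strand: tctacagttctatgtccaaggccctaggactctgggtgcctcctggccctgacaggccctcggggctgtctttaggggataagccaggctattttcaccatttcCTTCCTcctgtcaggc
Gp1bb, chr16:18622404-18622523, minus strand: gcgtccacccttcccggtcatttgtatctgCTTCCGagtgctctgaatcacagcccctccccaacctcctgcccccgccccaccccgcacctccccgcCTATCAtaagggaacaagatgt
Gp5 held 3 GATA words and 1 ETS word, Gp1bb held 1 of each here and Gp9 an ETS word alone. RefSeq promoter windows of 300 bases (250 before to 50 after the start) were at hand for 8 of the 10 genes, all but Vwf and Itgb3. Of these 8 windows 4 held a GATA word and 6 an ETS word, against 29.8 and 46.5% of all 32851 windows. A match is a run of letters only, not a binding site, and these counts are too small for any comparison.

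The gene values rest on different transcripts in the 2 experiments. Short transcripts made up most of Pf4 in experiment 1, where a retained-intron transcript of 360 bases had 265, 148 and 108 TPM in the controls, against 0.541 and 0 TPM in experiment 2. The full coding transcript of Pf4 (588 bases) had 22.7, 11.8 and 11.3 TPM in the controls of experiment 1 and 4.33, 7.40 and 1.89 TPM in the libraries labelled Reg1Δ/Δ. In experiment 2 it had 56.3 and 52.4 TPM against 6.65 and 11.2 TPM. The coding transcript of Selp (3438 bases) likewise had 5.91, 4.31 and 3.31 TPM against 1.03, 0.511 and 0.673 TPM, and 6.17 and 7.52 TPM against 0.107 and 0.164 TPM. Protein-coding transcripts held 24.6 to 33.1% of the TPM of Itga2b in the controls of experiment 1 and at least 81.3% in those of experiment 2.

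**Figure D4:**
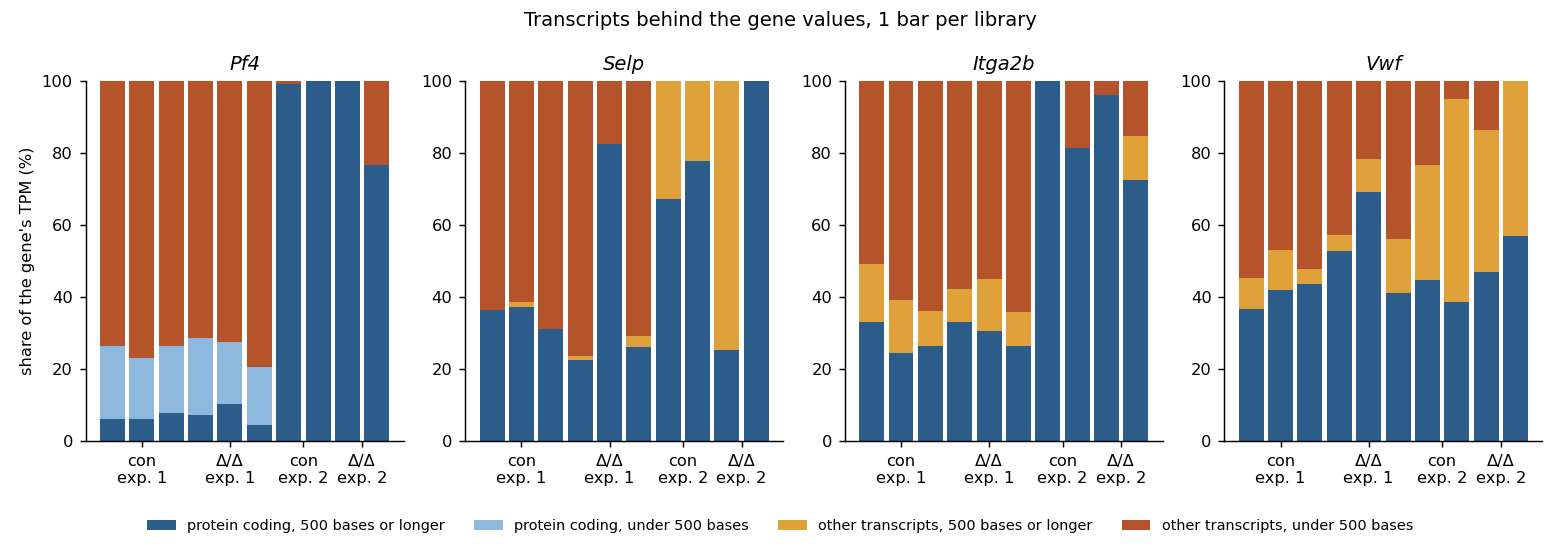
Share of the TPM of Pf4, Selp, Itga2b and Vwf (vertical axis, percent) held by coding and other transcripts of at least or under 500 bases, 1 bar per library, ordered as controls (con) and libraries labelled Reg1Δ/Δ (Δ/Δ) of experiment 1 and then of experiment 2. Short transcripts other than coding ones (dark orange) hold most of Pf4 in experiment 1 and little of it in experiment 2.

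Of the 21 transcripts of these genes that could be tested, 10 were lower and 0 higher, against 14.4% of 38976 transcripts that were lower. All 10 were protein-coding, of 13 coding ones tested, and came from 8 genes. Both coding transcripts of Mmrn1 reached the minimum of 0.5 TPM in the controls alone. They could enter the test only as transcripts that differ. Of the 8 transcripts tested that were not coding limma called 0, with 3 at an unadjusted p under 0.05. No transcript was higher at that unadjusted p either. Several of those that were not coding were at 0 TPM throughout experiment 2, so a call over both experiments was hard to reach. In experiment 1 the mean of each was lower in the libraries labelled Reg1Δ/Δ, some with overlap. The retained-intron transcript of Pf4 had 42.3, 52.5 and 32.5 TPM there, against 265, 148 and 108 TPM. The long coding transcript of Vwf (8834 bases) was among the lower ones (difference -1.59 ± 0.21 SE, FDR = 8.51e-04). A shorter coding transcript of Vwf (1807 bases) differed by 0.11 ± 0.20 SE (FDR = 0.728), and a transcript marked for nonsense-mediated decay supplied 3.69 and 13.3 of the 11.6 and 23.7 TPM of Vwf in the controls of experiment 2. With the longest coding transcript of each gene alone, an alternative chosen after seeing the data, 7 of the 8 genes that could be tested were lower. Here Mmrn1, Vwf and Itgb3 reached the minimum of 1 TPM in the controls alone, and could enter only as genes that differ.

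The regulators of the lineage fell or rose by gene. Of 16 transcription factors, 10 were lower, 3 higher and 3 not past the threshold (median -1.10). Among all genes tested 37.9% were lower and 15.0% higher, so the share that rose was near that of all genes. Meis1, a cofactor of HOX proteins, had the largest fall (-3.49 ± 0.15 SE), and Fli1, the ETS factor of megakaryocytes, went from 30.9 to 54.4 TPM in the controls to 2.96 to 7.65 TPM (-2.72 ± 0.12 SE, FDR = 3.05e-07). Mef2c (-2.47), Runx1 (-1.48), Gata2 (-1.28) and Nfe2 (-1.14) were lower too, the last being the factor that drives platelet release. Gata1, the master factor of erythroid cells and megakaryocytes, was higher in all 5 libraries, at 157 to 191 TPM against 28.0 to 86.8 TPM (1.55 ± 0.25 SE, FDR = 6.38e-04). Tal1 was higher by 0.43 ± 0.14 SE (FDR = 0.0265, and 4.56e-04 to 0.850 over the settings tried), at levels that differed widely between the experiments, and its groups overlapped in experiment 1. Its call was lost in 9 settings, 6 of which left out a single library (control 2 or library 3 labelled Reg1Δ/Δ of experiment 1, or any library of experiment 2), and with the replicate block (FDR = 0.0651). The third that rose was Gfi1b, a transcriptional repressor that erythroid cells and megakaryocytes need to develop. Under quantile normalization 10 were lower and 3 higher, and under median-of-ratios scaling 10 and 4. Of all 12874 genes tested, 2636 were lower and 3861 higher under the first, and 3425 and 3973 under the second.

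Of 12 genes of the thrombopoietin pathway 4 were lower and none higher, with 0 rises at an unadjusted p under 0.05 (median -0.37, against -0.25 for all genes), a share below the 37.9% of all genes tested that were lower. Among them were the adaptor Sh2b3 (-1.47), the inhibitor Socs3 (-1.25) and the kinase Jak2 (-0.43). Jak2 (FDR = 0.752) and Socs3 (FDR = 0.329) were not past the threshold under quantile normalization, which left 2 lower and 3 higher in this list. Under that scaling 2636 of all 12874 genes tested were lower and 3861 higher, so neither count stood out. Under median-of-ratios scaling Jak2 was not past the threshold either (-0.09, FDR = 0.406).

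Among other platelet receptors and adhesion proteins, 12 of 17 tested were lower and 2 higher (median -1.81), of 25 listed. Of all genes tested 37.9% were lower and 15.0% higher, so the share that rose was not above that of all genes. The 2 that rose were Gp1ba and the ADP receptor P2ry1. Esam, an adhesion molecule shared with HSCs and endothelium, went from 415, 255 and 275 TPM to 15.5, 20.4 and 18.5 TPM in experiment 1 and from 32.9 and 32.2 TPM to 1.72 and 0.675 TPM in experiment 2 (-4.00 ± 0.18 SE). The junction protein F11r (-3.45), the ATP-gated channel P2rx1 (-3.04) and the thromboxane receptor Tbxa2r (-3.03) were next. The collagen receptor Gp6 was at 0 to 0.0560 TPM and Clec1b, the podoplanin receptor, at 0 to 1.31 TPM over the 10 libraries.

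Of other granule genes, 12 of 18 tested were lower and none higher, with 0 rises at an unadjusted p under 0.05 (median -0.71). They included Nbeal2 (-2.90), needed to form alpha granules, and the contents F13a1 (-2.55), Clu (-2.25) and Serpine2 (-2.02). Of the cytoskeleton and release genes, 12 of 16 tested were lower and 1 higher (median -1.11), with the G-protein subunit Gng11 (-3.57), the channel Trpc6 (-3.44), the Rap activator Rasgrp2 (-3.32) and zyxin, Zyx (-2.41), at the head. The gene that rose was Tuba4a, an alpha tubulin, whose call was lost in 15 settings (FDR of up to 0.218), 0.0667 with the replicate block among them. The libraries whose omission ended it were controls 2 and 3 and all 3 labelled Reg1Δ/Δ of experiment 1, and control 1 and library 1 labelled Reg1Δ/Δ of experiment 2. Tubb1, the platelet beta tubulin, lay between 0.354 and 3.92 TPM and was not tested in the main comparison. Of the signalling enzymes, 16 of 19 tested were lower and 1, the kinase Pik3cb, higher (median -1.43). Those with the largest fall were thromboxane synthase, Tbxas1 (-3.65), cyclooxygenase 1, Ptgs1 (-3.51), phospholipase Plcg2 (-3.15) and the adaptor Lcp2 (-2.07). Over the 6 lists, 66 of 98 tested genes were lower and 7 higher, beside 37.9% lower and 15.0% higher among all genes tested. They were 54 and 13 under quantile normalization and 60 and 15 under median-of-ratios scaling, and the granule list had 1 higher gene under each. Of the 98 genes, 6 reached the minimum of 1 TPM in the controls alone, Trpc6 among them, and could enter the test only as genes that differ.

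**Figure D5:**
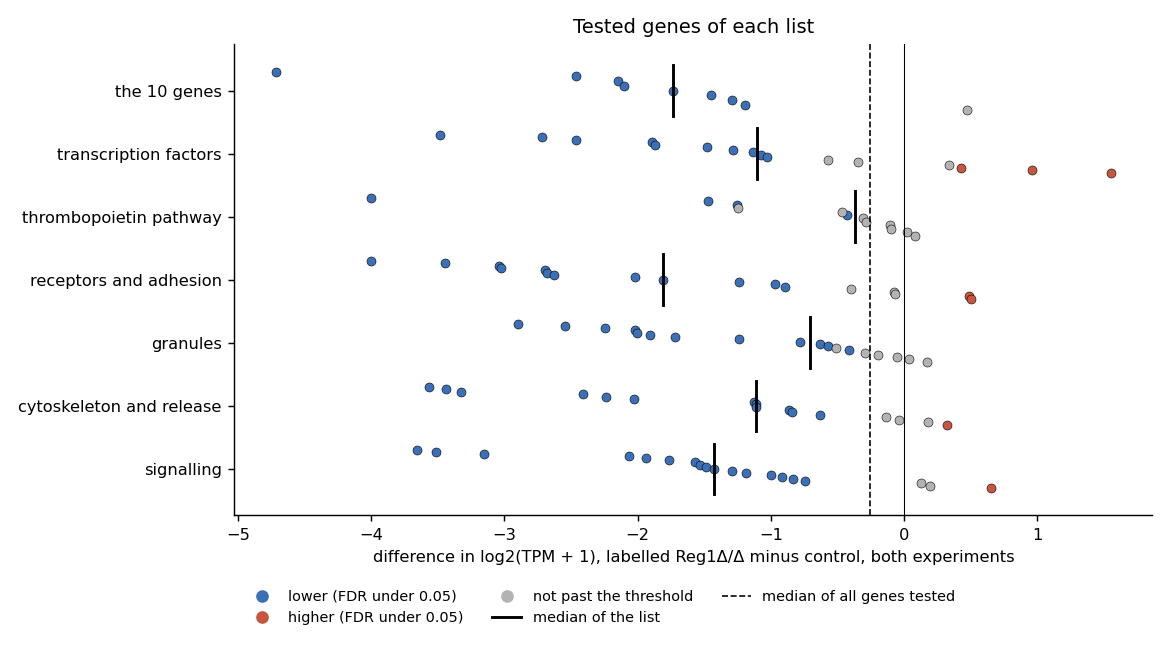
Difference in log2(TPM + 1), libraries labelled Reg1Δ/Δ minus control, of every tested gene of the 10 and of the 6 lists, blue where lower and red where higher at an FDR under 0.05, with a black bar at the median of each list and a dashed line at the median of all genes tested (-0.25). The lists lie mostly left of the dashed line, except the thrombopoietin pathway, whose median is -0.37.

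Markers of other cells moved with genotype in the same libraries. Of 16 endothelial markers, 8 of 10 tested were lower (median -2.73), but 5 of the 10 reached the minimum of 1 TPM in the controls alone and could enter the test only as genes that differ. Among those lower were Emcn (-3.82), Tie1 (-3.40), Robo4 (-3.39) and Erg (-3.16), several of which HSCs also transcribe. The 2 not called were Egfl7 (mean 165 TPM in the controls and 119 TPM in the libraries labelled Reg1Δ/Δ, limma FDR = 0.0830) and Eng (74.0 and 62.5 TPM, FDR = 0.194). The sum of the 16 markers was 331 to 433 TPM against 191 to 242 TPM in experiment 1. In experiment 2 it was 365 to 421 TPM against 164 to 172 TPM. Egfl7 and Eng held a large part of this sum. Vwf, Selp and Mmrn1 are shared with endothelium. The share of all genes tested that were lower was 37.9%. In each experiment alone 8 of the 10 were lower as well, beside 38.3% of all genes in experiment 1 and 12.3% in experiment 2. Stab2 was at 1.01 to 5.48 TPM in the controls of experiment 1 and at no more than 0.0229 TPM in the libraries labelled Reg1Δ/Δ, and Cldn5 at up to 5.13 TPM against no more than 0.0148 TPM. The defining marker Cdh5 was at 0 in all 5 libraries labelled Reg1Δ/Δ, at 9.57 and 10.6 TPM in the controls of experiment 2 and at 0.00601 to 0.317 TPM in those of experiment 1.

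Beside each count that follows, 37.9% of all genes tested were lower over both experiments. Neutrophil granule genes were lower for 7 of 10, led by S100a9 (-5.62), S100a8 (-5.25), Ltf (-5.25) and Ngp (-5.21). The sum of this list was 3250.2 to 5624 TPM against 345 to 1069 TPM in experiment 1. In experiment 2 it was 11872 to 13748 TPM against 928 to 998 TPM. B-lineage genes were lower for 8 of 8 tested, led by Igll1 (-6.81), Vpreb1 (-6.26), Cd79a (-6.12) and Dntt (-6.10), with a sum of 183 to 1589 TPM in the controls and of 2.75 to 24.0 TPM in the libraries labelled Reg1Δ/Δ. Mast cell and basophil genes were lower for 4 of 5 tested, led by Cpa3 (-2.15), Gzmb (-1.64) and Hdc (-1.38). Under quantile normalization Cpa3 was lower, Ms4a2 was higher and the other 3 were not past the threshold (FDR = 0.160 for Hdc). In experiment 2 alone 1 was lower, Cpa3 (12.3% of all genes were). Without a minimum on TPM 2 of 10 were lower, near the 16.7% of all genes. Of the 14 erythroid genes 6 were lower, with Hbb-bs (-3.19), Hba-a2 (-3.00) and Slc4a1 (-2.68), and 6 higher, with Rhag (2.65), beside 37.9% lower and 15.0% higher among all genes tested. The sum of the 14 was higher in the libraries labelled Reg1Δ/Δ. It was 4179 to 7415 TPM in the controls against 11006.5 to 11918 TPM in experiment 1. In experiment 2 it was 8079 to 9746 TPM against 9943 to 10139 TPM. The most abundant genes set such a sum, so it does not describe the list gene by gene. Of the HSC genes 10 of 12 tested were lower, 1 of which passed the minimum through the controls alone, beside 37.9% of all genes tested. They were led by Hlf (-5.22), Procr (-4.13), Mecom (-3.48) and Cd34 (-3.02). Cd34 and Flt3, both lower, encode proteins that the sort selected against. The 2 not called had higher means in the libraries labelled Reg1Δ/Δ. Ly6a, the gene of Sca-1, had 222 against 88.0 TPM (limma FDR = 0.155, and 0.0366 in experiment 2 alone). Cd48 had 98.5 against 78.3 TPM (FDR = 0.119). The part that any of these other cells had in the 10 genes was not tested.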

How the data were processed

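Total RNA of sorted CD34- HSCs was sequenced by the authors as paired reads, aligned with STAR to GRCm38 (mm10) and quantified with Salmon 0.9.1, and values were deposited by the authors on the log2 scale as log2(TPM + 1) per transcript. The labels and the methods name different cDNA kits. TPM keeps no read number, so depth is unknown and no counting interval is given. Here TPM was recovered and summed per gene. Genes with at least 1 TPM in at least 5 of 10 libraries were tested with limma 3.58.1 (R 4.3.3; lmFit and eBayes) on log2(TPM + 1), experiment as covariate, with Benjamini-Hochberg adjustment over all genes and a threshold of 0.05. Transcripts needed 0.5 TPM in 5 libraries. The pseudocount of 1 understates the fold of low genes. Single values were also tested by exact permutation within experiments (Python 3.11.15).

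The 10 genes and the lists were chosen with earlier results of these data known. The text names the 10 genes, Zc3h12a, 11 genes settled with the lists, and from each list up to 4 genes with the largest difference at a mean of at least 5 TPM. Genes called in small counts, Sept5, single cell markers, transcripts and folds without a library were added after values were seen. The labels do not say that samples came from separate mice, so p-values measure only the spread between these samples. The header of library 2 labelled Reg1Δ/Δ of experiment 2 bears the name of library 1, but its values differ. Positions are from GENCODE M21 on GRCm38. Scripts were tested on simulated data. Alternatives were other scalings, pseudocounts, filters, covariates, transcripts and the omission of each library. Some genes of these lists are counted but not reported here by name.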

Additional observations from a re-analysis of the deposited data

Results flagged for a closer look

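Of all genes in the lists, 1 had a difference that changed between the experiments by the test of that change itself. Ldb1, a bridging protein of the GATA and Tal1 complexes that was named after its values were seen, had 53.3, 46.4 and 46.7 TPM in the controls of experiment 1 and 22.3, 19.1 and 23.2 TPM in the libraries labelled Reg1Δ/Δ. In experiment 2 it had 146 and 167 TPM against 199 and 186 TPM. The difference was -1.15 in experiment 1 and 0.30 in experiment 2, 1.44 ± 0.21 SE apart (limma interaction, FDR = 0.0329, with 57 of 12874 genes called). The level of Ldb1 also differed between the experiments, and the cause of the change was not tested.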

How the results depend on the processing

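Over both experiments the count of lower genes was 6 without the experiment covariate, 7 under quantile normalization and with the longest coding transcripts alone, and 8 in the other alternatives, each library left out included. None of the 9 tested genes changed sign in any of these. Among single genes, Pf4 and Itga2b lost the threshold without the experiment covariate, Gp1bb lost it under quantile normalization and Gp5 passed it under 4 alternatives. So the count of higher genes was 1 instead of 0 under quantile normalization, 1 under median-of-ratios scaling and 0 to 1 with a library left out. Under quantile normalization it was 1 in experiment 1 and 1 in experiment 2 as well, and the lower genes of experiment 1 were 5 instead of 8. With a library of experiment 2 left out, which leaves 1 library in a genotype, 0 genes were lower there each time. Ppbp had a fit only without a minimum on TPM.

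With the replicate block, that is with equal replicate numbers treated as paired, 8 genes were lower and 0 higher, and 9 transcripts lower instead of 10. The numbers did not pair the libraries, with correlations of 0.03, 0.18 and 0.07 in experiment 1 and -0.05 in experiment 2. Only 2 of the 5 numbers correlated best with themselves, and no call among the 10 genes changed, while Zc3h12a, Tal1 and Tuba4a lost theirs.

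Over all genes, calls moved from 1933 higher and 4880 lower to 716 and 3052 without the covariate, and to 1473 and 2758 among the 8093 genes tested with the longest coding transcripts. Experiment 1 had 1543 higher and 4934 lower, 3402 and 2448 under quantile normalization, and 883 or 987 higher without library 3 or 1 labelled Reg1Δ/Δ. Experiment 2 had 452 and 1581, against 1012 and 1118. Transcripts had 2056 higher, and 1161 with the block. Depth is unknown, so values near 0 carry no stated limit.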
